A study of Mus musculus with 12 samples.

Results

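The Naip genes and the inflammasome components that act with them were examined in mouse hippocampus. The members were the sensors Naip1, Naip2, Naip5 and Naip6, the platform genes Nlrc4 and Nlrp3, the adaptor Pycard, the protease Casp1, and the cytokines Il18 and Il1b. They were chosen by name and make up 10 of the 55573 genes in the count table, and the counts of the 4 Naip paralogs were also summed, since reads may be split among copies. Whole right hippocampi came from mice of the C57BL/6J strain aged 4.5 months, in 4 groups of genotype and sex: 4 APP/PS1 females, 4 APP/PS1 males, 2 wild-type (WT) females and 2 WT males. The labels give the APP/PS1 genotype as APPSwe/Ps1dE9, in which dE9 stands for the loss of exon 9 from PS1 and the APP joins mouse and human sequence. Per the methods a prion promoter element drives the transgenes. Expression from a promoter other than the gene's own is a limit of such mice as a model. Each library is a polyA-selected, directional library of 1 animal, and each sex rests on 2 WT animals. Total counts per library were 37750056 and 45266162 in WT females, 36714316 to 43993432 in APP/PS1 females, 38332826 and 50643565 in WT males, and 38740224 to 44301634 in APP/PS1 males. Levels are normalized CPM, that is, counts scaled to library size with upper-quartile factors.

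The genotype labels were first set beside the genes that bear on the transgenes. Thy1, a neuronal surface glycoprotein, lay at 723 to 748 CPM in the 4 WT libraries and at 2183 to 3299 CPM in the 8 APP/PS1 libraries, so the genotypes did not overlap. Its log2 fold change was 1.89 (SE 0.13) in females and 1.70 (SE 0.12) in males, with adjusted p of 0.000172 and 0.000306 by edgeR's quasi-likelihood test with Benjamini-Hochberg adjustment. The rows of App at 1531 to 1716 CPM in WT and 1535 to 1644 CPM in APP/PS1, and of Prnp at 732 to 815 and 714 to 821 CPM overlapped between genotypes. The methods name a prion promoter element, while Thy1 passed the test and Prnp and App did not. Where the Thy1 reads came from, and which construct the mice carry, was not tested, so the promoter is given here only as the methods state it.

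Markers of the tissue were present in every library. The 8 hippocampal neuron markers, led by Neurod6, summed to 692 to 867 CPM, and the 5 astrocyte markers, led by Slc1a2, to 4360 to 5417 CPM. Of the neuron markers 1 passed the test, Spink8, which fell by 0.28 on the log2 scale with both sexes averaged (adjusted p = 0.0573, edgeR's quasi-likelihood test, Benjamini-Hochberg). In females 0 of the 8 passed this test, with 5 at an unadjusted p under 0.05 and 2 called by the likelihood ratio test and by DESeq2. In males 0 of the 8 passed it, with 1 at an unadjusted p under 0.05 and 1 called by the likelihood ratio test and by DESeq2. Spink8 had -0.43 in males and -0.13 in females. Over the 8 neuron markers the median log2 fold change was -0.26 in females, with 2 above 0, and 0.075 in males, with 5 above 0. Of the 5 astrocyte markers 1 passed, Gfap, the intermediate filament of reactive astrocytes, which rose by 1.27 in females and by 1.05 with both sexes averaged and had 0.83 in males without passing (adjusted p = 0.404, edgeR's quasi-likelihood test, Benjamini-Hochberg). In males the likelihood ratio test and DESeq2 each called 1 of the 5, and all APP/PS1 libraries lay above all WT libraries for Gfap in each sex. Over the 5 the averaged median was -0.0054, with 2 above 0.

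Other libraries stood apart in markers of neighbouring or blood-borne cells. The 8 choroid plexus markers, led by Ttr, summed to 4020 CPM in WT female 2, 3872 CPM in APP/PS1 female 1 and 6904 CPM in APP/PS1 male 2, against 24.4 to 43.3 CPM in the other 9 libraries. These are called the choroid plexus-rich libraries, and they fall in 3 of the 4 groups. Of the 8 markers 1 passed the test in females, Kl, with a fitted log2 fold change of -0.46 (adjusted p = 0.0460, edgeR's quasi-likelihood test, Benjamini-Hochberg). Of the 15521 genes tested 6 were called lower there. In CPM the female groups overlapped for Kl, at 22.6 and 149 in WT and 130, 16.6, 16.1 and 19.3 in APP/PS1. The high value of each genotype was in its choroid plexus-rich library. The 9 neutrophil markers, led by S100a9, summed to 10.1 CPM in WT male 2 and 1.55 CPM in APP/PS1 male 1, against 0.0757 to 0.422 CPM in the others, and every one of the 9 was at 0 in some library. In WT male 2 the counts were 175 for S100a8, 199 for S100a9, 54 for Retnlg, 38 for Mmp8 and 35 for Cxcr2. The 5 monocyte markers, led by Ccr2, summed to 1.03 CPM in WT male 2 and 1.501 CPM in APP/PS1 male 1 and to 0.0787 to 0.481 CPM elsewhere, with 4 of the 5 at 0 in some library. The 5 border macrophage markers, led by Mrc1, summed to 6.30 to 11.7 CPM. Of the 3 that could be tested, 0 passed edgeR's quasi-likelihood test in females, in males or with both sexes averaged, with 0, 2 and 1 at an unadjusted p under 0.05 and 0 by the likelihood ratio test or DESeq2.

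**Figure D1:**
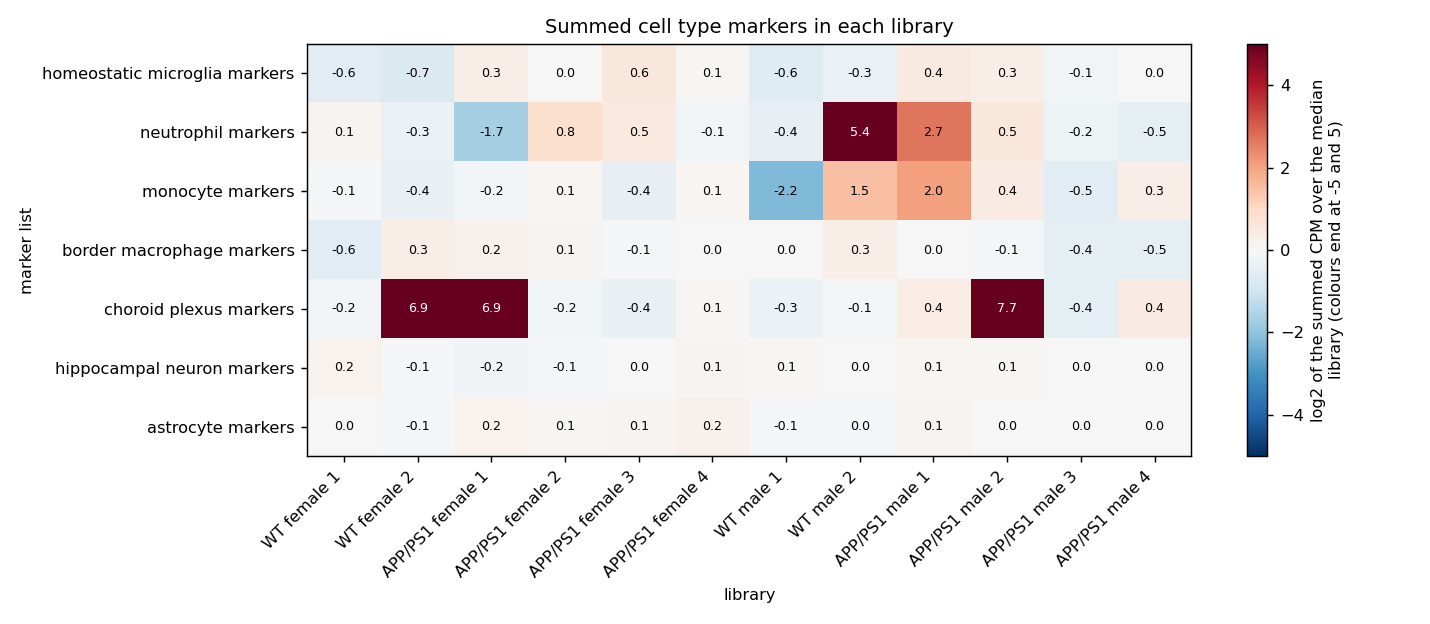
Summed normalized CPM of 7 cell type marker lists in each of the 12 libraries, as log2 over the median library, with colours ending at -5 and 5. Choroid plexus markers stand out in WT female 2, APP/PS1 female 1 and APP/PS1 male 2, neutrophil markers in WT male 2 and APP/PS1 male 1, and microglia markers lie below the median in all 4 WT libraries.

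NAIP proteins are cytosolic sensors of bacterial flagellin and of needle and rod proteins of bacterial secretion systems. A NAIP that has bound its ligand opens NLRC4, which then assembles into a platform that recruits caspase-1, while NLRP3 builds a similar platform through the adaptor ASC, the product of Pycard, in response to many signs of cell damage. Caspase-1 cleaves the precursors of the cytokines IL-1β and IL-18, and in the brain these genes are mostly studied in microglia.

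The 4 Naip paralogs lie side by side on the minus strand of chromosome 13, within chr13:100144063-100452869 (GRCm38). Naip2 (ENSMUSG00000078945) spans chr13:100144063-100202092, Naip5 (ENSMUSG00000071203) chr13:100211739-100246323, Naip6 (ENSMUSG00000078942) chr13:100281121-100317674 and Naip1 (ENSMUSG00000021640) chr13:100407764-100452869. Their longest annotated transcripts are 83.1% to 89.8% identical, with Naip5 and Naip6 the closest pair. Of the 150-base stretches of their transcripts, the length of a read, 4.96% of Naip1, 0.537% of Naip2, 8.25% of Naip5 and 1.89% of Naip6 also occur in another gene. The counting options for reads that match several genes were not given in the sources used here, so the single paralogs' counts are uncertain and the sum is given beside them.

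Because Naip2, Naip5 and Naip6 were higher together in APP/PS1 females, their start regions are printed beside that of Naip1, from 100 bases before to 20 bases after the RefSeq start (GRCm38.p6, minus strand, 5′ to 3′). Capitals mark runs of at least 12 bases that also occur in another of the 4 windows.
Naip2: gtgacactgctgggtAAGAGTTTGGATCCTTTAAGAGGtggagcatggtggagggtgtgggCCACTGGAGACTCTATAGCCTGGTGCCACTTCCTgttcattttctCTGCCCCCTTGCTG
Naip5: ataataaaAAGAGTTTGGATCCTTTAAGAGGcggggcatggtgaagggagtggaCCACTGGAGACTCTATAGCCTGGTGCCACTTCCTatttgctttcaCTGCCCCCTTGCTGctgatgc
Naip6: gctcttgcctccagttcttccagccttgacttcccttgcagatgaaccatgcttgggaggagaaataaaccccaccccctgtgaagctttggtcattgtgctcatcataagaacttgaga
Naip1: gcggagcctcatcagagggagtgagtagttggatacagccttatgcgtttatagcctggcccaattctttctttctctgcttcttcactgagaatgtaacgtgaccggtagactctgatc
They lie at chr13:100202103-100202222 for Naip2, chr13:100247317-100247436 for Naip5, chr13:100316597-100316716 for Naip6 and chr13:100452845-100452964 for Naip1. The RefSeq start of each of the 4 differs from the end of its gene span above, which comes from GENCODE, and the whole windows of Naip2 and Naip5 lie outside those spans. In Naip2 and Naip5, 71 of 120 bases are in such runs, the longest shared run is 34 bases, and the windows are 78.0% identical. The other pairs of windows are 48.5% to 52.2% identical and share at most 10 bases in a row. The printed Naip6 and Naip1 windows therefore do not resemble those of Naip2 and Naip5. The Naip6 window lies wholly inside its gene span, so the windows may not sit at like positions, and other starts were not compared.

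Motifs were searched on both strands of the RefSeq promoters, from 250 bases before to 50 after each start, which were found for all 10 members. The letters AGGAAGTG, of the type bound by ETS factors, occur in Naip2, Naip5, Nlrc4 and Pycard, which are 4 of the 10 members, and in 4.19% of all 27025 promoters. In Naip2 and Naip5 they lie, on the opposite strand, within the 34-base run that both windows share, so these matches are not independent of each other. TATAAA occurs in Naip1, Naip5, Il18 and Il1b and in 14.2% of all promoters. The letters GGGA and TTCC with any 2 bases between them, of the NF-kappaB type, occur in 0 of the 10 and in 1.43% of all promoters, and GAAA and GAAA with any 2 bases between them, of the interferon response type, in 0 of the 10 and in 3.49%. No motif holds the letters of another, and a match is a description of these letters alone.

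Genes were tested where at least 3 libraries reached 1 CPM, which 15521 genes and 7 of the 10 members did. Naip1, Nlrc4 and Il1b reached it in 0 libraries. Pycard, Casp1 and Il18 passed in all 12 libraries, Naip2 and Nlrp3 in 11 and Naip5 in 9, of which 1 was a WT library. Naip6 passed through 5 APP/PS1 libraries and 0 WT libraries, so it could be tested only through the genotype in which it was higher. Naip5, with 1 WT library, also needed the APP/PS1 libraries, while the other 5 passed on WT libraries alone. Counts and medians over the 7 are for this reason a description of those that could be tested and no support for a rise.

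Naip2, whose protein recognizes the rod of bacterial secretion systems, was at 1.16 and 0.911 CPM in WT females and at 3.86, 2.69, 4.75 and 3.36 CPM in APP/PS1 females. In males it was at 1.52 and 1.48 CPM in WT and at 3.501, 3.75, 2.36 and 2.35 CPM in APP/PS1. All 8 APP/PS1 libraries lay above all 4 WT libraries. The group means were 1.04 ± 0.179 CPM (SD, n = 2) in WT females, 3.67 ± 0.867 (n = 4) in APP/PS1 females, 1.501 ± 0.028 (n = 2) in WT males and 2.99 ± 0.737 (n = 4) in APP/PS1 males.

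Naip5, a sensor of flagellin, was at 0.582 and 0.650 CPM in WT females and at 2.80, 2.16, 2.29 and 1.05 CPM in APP/PS1 females. Its values in males were 0.918 and 1.19 CPM in WT and 1.62, 2.40, 1.09 and 1.16 CPM in APP/PS1. The female groups were apart, while APP/PS1 males 3 and 4 fell between the WT males. Naip6, the other flagellin sensor, was at 0.212 and 0.412 CPM in WT females against 1.01, 1.64, 1.40 and 0.638 CPM in APP/PS1 females, and at 0.577 and 0.672 CPM in WT males against 1.19, 1.11, 0.954 and 0.810 CPM in APP/PS1 males. It was apart in each sex, although APP/PS1 female 4 lay below WT male 2.

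Naip1, which senses the needle of bacterial secretion systems, had 2 and 12 counts in WT females, 4, 3, 4 and 4 in APP/PS1 females, 6 and 5 in WT males and 6, 8, 1 and 10 in APP/PS1 males. At this depth no difference was detectable, and all groups overlapped. Naip3 had 0 to 2 counts and Naip3-ps1 had 0 to 4 counts per library.

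The summed Naip counts stood at 2.01 and 2.23 CPM in WT females and at 7.78, 6.57, 8.53 and 5.16 CPM in APP/PS1 females. In males the sum was 3.17 and 3.44 CPM in WT and 6.45, 7.47, 4.43 and 4.58 CPM in APP/PS1. All 8 APP/PS1 libraries lay above all 4 WT libraries, and both WT males lay above both WT females. In bulk tissue, more cells of a type and more RNA per cell cannot be told apart. Naip2 gave 40.8% to 57.9% of the sum in WT libraries and 41.0% to 65.1% in APP/PS1 libraries, Naip5 gave 28.9% to 34.5% and 20.4% to 36.0%, and Naip6 gave 10.5% to 19.5% and 12.4% to 24.9%. The shares overlapped between genotypes for each of these paralogs.

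**Figure D2:**
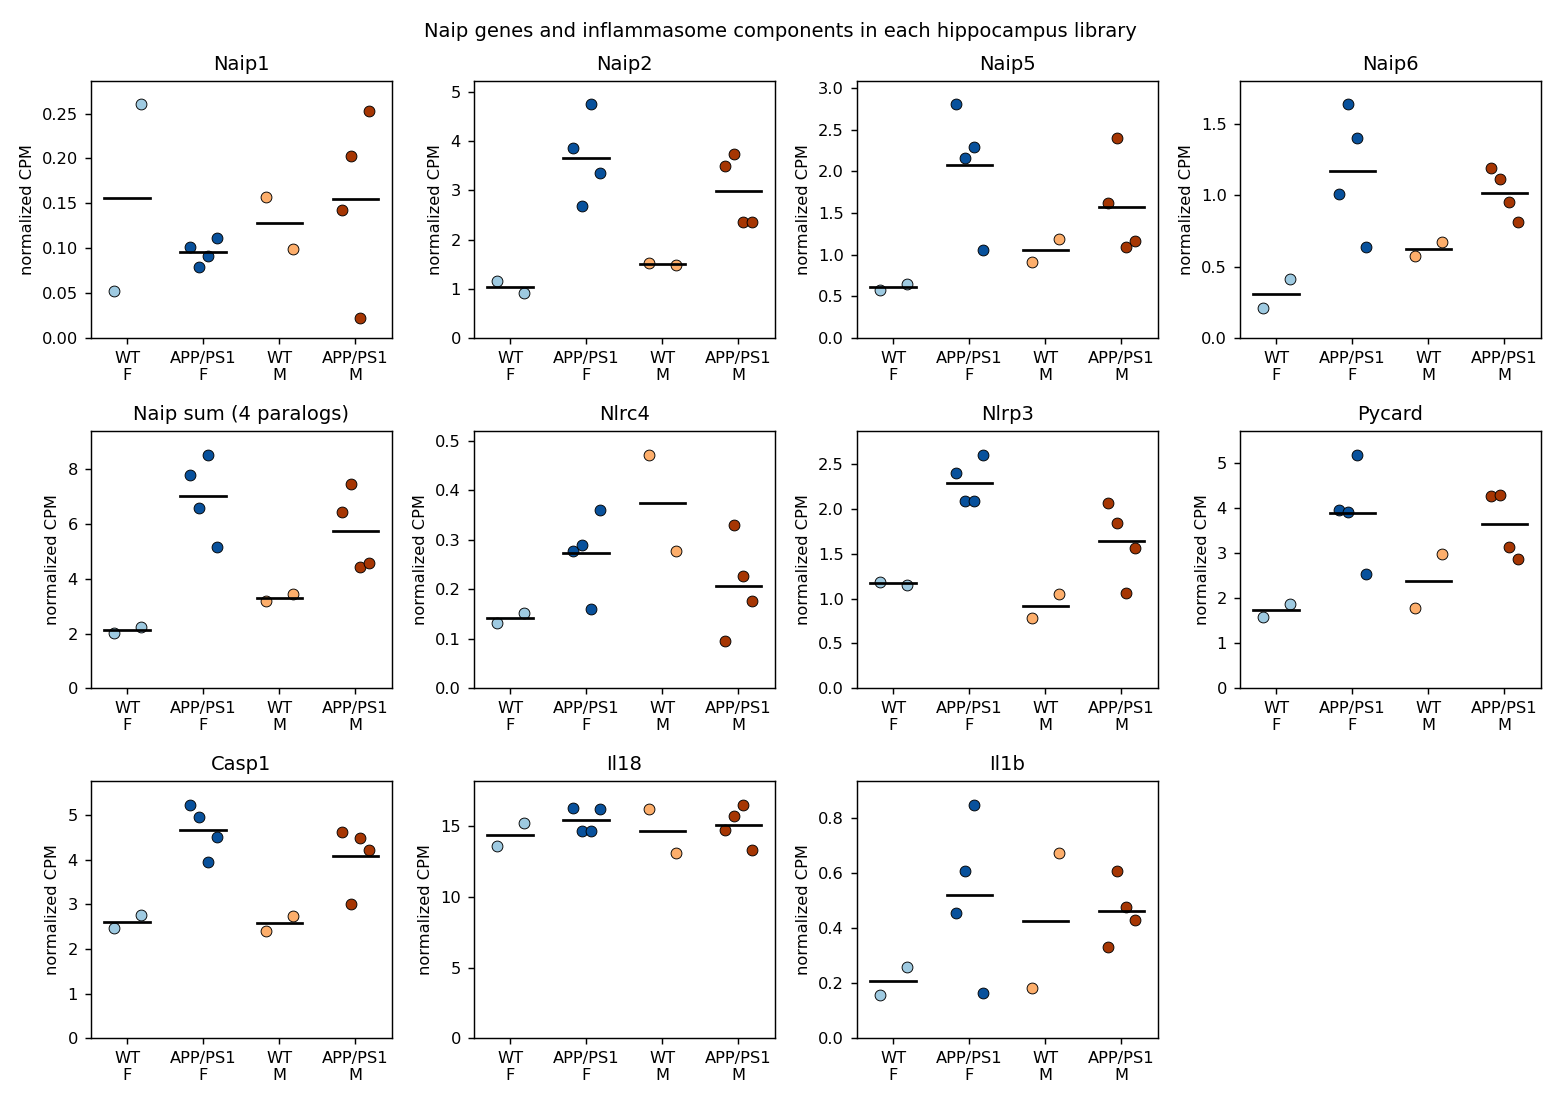
Normalized CPM of each of the 10 members and of the Naip sum in each library (points) with the group mean (lines), for females (F, blue) and males (M, orange), each panel on its own axis from 0. In the panels of Naip2, the Naip sum and Casp1 all 8 APP/PS1 points lie above all 4 WT points, and in the panel of Il18 the groups lie together between 13.1 and 16.5 CPM.

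In females, the question was which members differ between APP/PS1 and WT. Naip2, Naip5 and Naip6 rose, which is 3 of the 7 members tested, where 0.76% of all genes tested were higher in APP/PS1 at a false discovery rate (FDR) under 0.1. The filter selected for Naip5 and Naip6, and of the 5 members that passed it on WT libraries alone 1 was called, Naip2. The log2 fold change was 1.78 (SE 0.29) for Naip2, 1.94 (SE 0.35) for Naip5 and 2.0 (SE 0.44) for Naip6, with adjusted p of 0.0137, 0.0321 and 0.0756 by edgeR's quasi-likelihood test with Benjamini-Hochberg adjustment. All 4 APP/PS1 females lay above both WT females for each. The Naip sum rose by 1.80 (SE 0.24, 95% interval 1.29 to 2.31, adjusted p = 0.00411 by edgeR's quasi-likelihood test, Benjamini-Hochberg). Over the 7 members the median log2 fold change was 1.27, against 0.018 over all genes tested. For 6 of the 7 members all 4 APP/PS1 females lay above both WT females, as for 12.7% of all genes.

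These female calls depended on single WT animals. Without WT female 1 the log2 fold change was 2.12 for Naip2, 2.26 for Naip5 and 1.60 for Naip6 with adjusted p of 0.113, 0.174 and 0.676, and without WT female 2 it was 1.53, 1.69 and 2.51 with adjusted p of 0.121, 0.172 and 0.131 (edgeR's quasi-likelihood test, Benjamini-Hochberg, with the remaining WT female assumed to vary like the other groups). The Naip6 call was also lost without APP/PS1 females 2 (adjusted p = 0.211) or 3 (0.132) or without APP/PS1 males 2 (0.105) or 3 (0.1001), by the same edgeR test and Benjamini-Hochberg adjustment. With the choroid plexus-rich libraries left out, which leaves 1 WT female, the log2 fold changes of Naip2 and Naip5 were 1.5 and 1.67 with adjusted p of 0.106 and 0.130 by the same edgeR test and Benjamini-Hochberg adjustment. Naip6 at 2.54 (adjusted p = 0.0959) and Pycard at 1.25 (0.0876) passed that same edgeR test with Benjamini-Hochberg adjustment there. Over all alternatives the adjusted p ran from 2.4e-06 to 0.293 for Naip2, from 2.8e-05 to 0.470 for Naip5 and from 0.000657 to 0.676 for Naip6 (edgeR or DESeq2, Benjamini-Hochberg). The Naip sum passed the test without any single library, with adjusted p of 0.0847 at most, and with the choroid plexus-rich libraries left out it had a log2 fold change of 1.71 (adjusted p = 0.0230, edgeR's quasi-likelihood test, Benjamini-Hochberg). That fit and those without a WT female compare with 1 WT female, assumed to vary like the other groups. It did not pass where WT male 2 was left out with them and the RUV factors were dropped, with 1 WT library in each sex, at 1.75 (adjusted p = 0.151 by the same edgeR test and adjustment), over a range of 5.9e-10 to 0.151 across alternatives.

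In males, 0 of the 7 members passed edgeR's quasi-likelihood test, where 0.161% of all genes tested were called higher. These are 25 genes, and the male calls over all genes were 6 to 102 with single libraries left out and 135 by the likelihood ratio test. At an unadjusted p under 0.05 there were 3 (Naip2, Nlrp3 and Casp1) and 852 of the 15521 genes, and edgeR's likelihood ratio test and DESeq2 each called 0. Naip2 had a log2 fold change of 0.91 (SE 0.27, 95% interval 0.34 to 1.49, adjusted p = 0.437 by edgeR's quasi-likelihood test, Benjamini-Hochberg), Naip5 of 0.36 (SE 0.32) and Naip6 of 0.68 (SE 0.39). The Naip sum had 0.68 (SE 0.22, 95% interval 0.20 to 1.15, adjusted p = 0.553 by edgeR's quasi-likelihood test, Benjamini-Hochberg), with all 4 APP/PS1 males above both WT males. All 4 APP/PS1 males lay above both WT males for 4 of the 7 members, namely Naip2, Naip6, Nlrp3 and Casp1, as for 6.71% of all genes. The median log2 fold change over the 7 was 0.68, against 0.0039 over all genes.

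With both sexes averaged, a contrast that shares its libraries with each sex's own, 6 of the 7 members rose, all but Il18, where 1.75% of all genes tested were called higher. Of the 5 that passed the filter on WT libraries alone, 4 were called. For Naip2 the averaged log2 fold change was 1.35 (SE 0.19), for Naip5 1.15 (SE 0.24) and for Naip6 1.34 (SE 0.29), with adjusted p of 0.00375, 0.0332 and 0.0382 by edgeR's quasi-likelihood test, Benjamini-Hochberg. The Naip sum rose by 1.24 (SE 0.16, adjusted p = 0.00162, edgeR's quasi-likelihood test, Benjamini-Hochberg). All 8 APP/PS1 libraries lay above all 4 WT libraries for 2 of the 7 members, Naip2 and Casp1, as for 1.37% of all genes tested. The averaged median was 0.91, against 0.011 over all genes. Across alternatives the averaged log2 fold change ran from 0.96 to 1.35 for Naip5 and from 1.16 to 1.65 for Naip6. The averaged call of Naip5 was lost without WT female 2 (adjusted p = 0.159) and that of Naip6 without WT female 1 (0.191) or WT male 2 (0.112) by the same edgeR test and Benjamini-Hochberg adjustment, and Naip5 was also lost without the choroid plexus-rich libraries (0.112), where the ranges over alternatives were 0.000303 to 0.514 for Naip5 and 0.000264 to 0.289 for Naip6.

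Whether the genotype effect differed between the sexes was tested as an interaction, females minus males. By edgeR's quasi-likelihood test 0 of the 7 members and 0% of all genes passed, with an adjusted p of 0.998 for each member (Benjamini-Hochberg). At an unadjusted p under 0.05 there were 3 of the 7 members and 589 of the 15521 genes, and edgeR's likelihood ratio test and DESeq2 each called 0 members. The 3 were Naip2 with an interaction of 0.87 on the log2 scale (unadjusted p = 0.0433), Naip5 with 1.59 (0.00546) and Naip6 with 1.32 (0.0444). For the Naip sum it was 1.12 (SE 0.32, 95% interval 0.43 to 1.81, unadjusted p = 0.00382, adjusted p = 0.998 by edgeR, Benjamini-Hochberg). The larger female values are therefore not shown to differ from the male ones after adjustment, and the WT level of the sum, 2.12 ± 0.157 CPM (SD, n = 2) in females and 3.30 ± 0.186 (n = 2) in males, enters that difference.

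**Figure D3:**
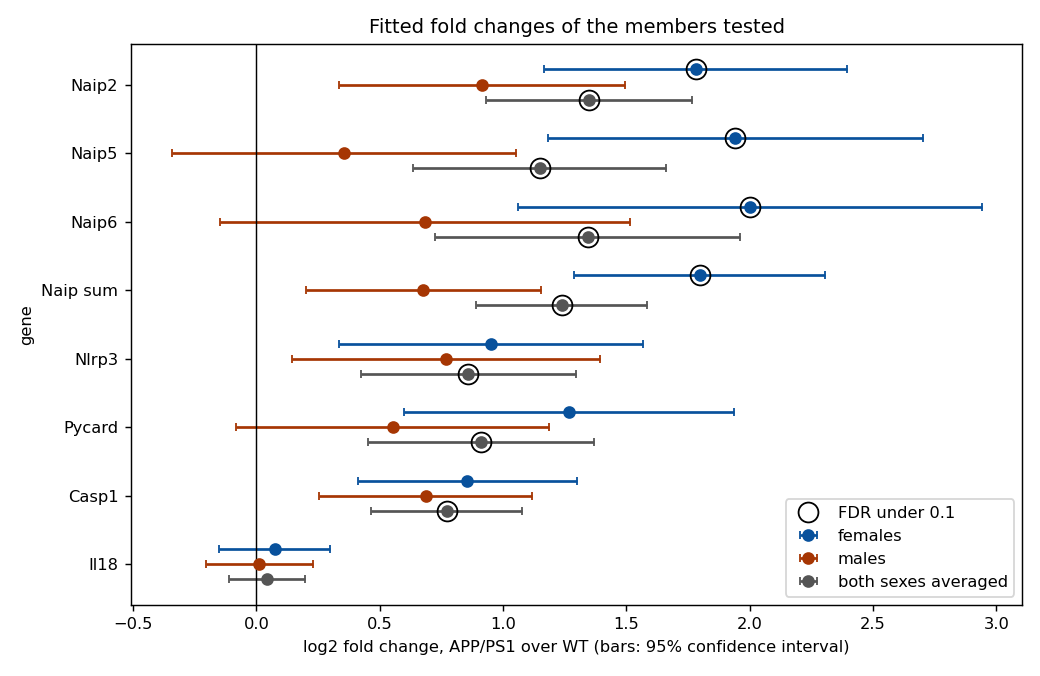
Fitted log2 fold changes of APP/PS1 over WT for the 7 members tested and the Naip sum in females, in males and with both sexes averaged, with 95% confidence intervals, and rings around those at an FDR under 0.1. Female values of Naip2, Naip5, Naip6 and the sum lie between 1.78 and 2.0, and those of Il18 lie near 0 in each contrast.

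Nlrc4 (ENSMUSG00000039193, chr17:74425438-74459142), the platform that NAIP proteins open, had 5 and 7 counts in WT females, 11, 11, 7 and 13 in APP/PS1 females, 18 and 14 in WT males and 4, 13, 10 and 7 in APP/PS1 males. In CPM this is 0.132 and 0.152 against 0.161 to 0.361 in females and 0.472 and 0.277 against 0.0953 to 0.329 in males. The female APP/PS1 libraries were above WT, while the male groups overlapped with the WT libraries toward the upper end. Fitted without the filter, the log2 fold change was 0.78 (SE 0.65) in females and -0.93 (SE 0.57) in males, and neither passed (adjusted p = 1 in both, edgeR's quasi-likelihood test, Benjamini-Hochberg).

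Nlrp3 (ENSMUSG00000032691, chr11:59541568-59566956), the sensor that responds to potassium efflux and other signs of damage, was at 1.19 and 1.15 CPM in WT females and at 2.40, 2.08, 2.09 and 2.61 CPM in APP/PS1 females. In WT males it was at 0.787 and 1.05 CPM and in APP/PS1 males at 2.07, 1.85, 1.07 and 1.57 CPM. The groups were apart in each sex, by a narrow margin in males, where APP/PS1 male 3 lay close to WT male 2. It rose with both sexes averaged by 0.86 (SE 0.20, 95% interval 0.43 to 1.29, adjusted p = 0.0590, edgeR's quasi-likelihood test, Benjamini-Hochberg). The averaged log2 fold change ran from 0.76 to 0.99 across alternatives. Within a sex Nlrp3 had 0.95 in females and 0.77 in males and passed in neither. Of 24 alternatives 1 called it in females, the likelihood ratio test (adjusted p = 0.0779, edgeR, Benjamini-Hochberg, over a range of 0.0779 to 0.740). The averaged call was lost without WT female 1 (adjusted p = 0.163), WT female 2 (0.194), WT male 1 (0.141), APP/PS1 females 1 (0.107) or 2 (0.117), APP/PS1 male 2 (0.141) or the choroid plexus-rich libraries (0.212), over a range of 0.00323 to 0.451 across alternatives by edgeR or DESeq2 with Benjamini-Hochberg adjustment.

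Pycard (ENSMUSG00000030793, chr7:127989708-127993867), which encodes the adaptor ASC, was at 1.59 and 1.86 CPM in WT females against 3.96, 3.91, 5.19 and 2.53 CPM in APP/PS1 females. Its male values were 1.78 and 2.98 CPM in WT and 4.26, 4.28, 3.14 and 2.86 CPM in APP/PS1. Females were apart, and APP/PS1 male 4 lay below WT male 2. With both sexes averaged Pycard rose by 0.91 (SE 0.21, 95% interval 0.45 to 1.37, adjusted p = 0.0590, edgeR's quasi-likelihood test, Benjamini-Hochberg). The averaged log2 fold change ran from 0.73 to 1.11 across alternatives. Within a sex Pycard had 1.27 in females (SE 0.31, adjusted p = 0.126 by the same edgeR test and adjustment) and 0.55 in males. In females Pycard was called in 10 of 24 alternatives, among them edgeR's likelihood ratio test (adjusted p = 0.0093) and DESeq2 (0.0081, both Benjamini-Hochberg), over a range of 0.0081 to 0.679. The averaged call was lost without WT female 1 (adjusted p = 0.207), WT female 2 (0.185), APP/PS1 female 2 (0.127), WT male 1 (0.151) or APP/PS1 male 2 (0.122), over a range of 0.00237 to 0.288 across alternatives by edgeR or DESeq2 with Benjamini-Hochberg adjustment. Its span overlaps the antisense gene Gm45205, and whether the counting used strand was not given in the sources used here, so a share of its reads may belong to that gene.

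Casp1 (ENSMUSG00000025888, chr9:5298517-5307265), the protease of the inflammasome, was at 2.46 and 2.75 CPM in WT females and at 5.23, 4.96, 3.95 and 4.50 CPM in APP/PS1 females. WT males had 2.41 and 2.75 CPM, and APP/PS1 males had 4.62, 3.01, 4.48 and 4.20 CPM. All 8 APP/PS1 libraries lay above all 4 WT libraries, with APP/PS1 male 2 the closest to them. Casp1 had an averaged log2 fold change of 0.70 to 0.87 across alternatives. In the main fit it rose with both sexes averaged by 0.77 (SE 0.14, 95% interval 0.46 to 1.08, adjusted p = 0.0169, edgeR's quasi-likelihood test, Benjamini-Hochberg). It had 0.86 (SE 0.21, adjusted p = 0.112) in females and 0.69 (SE 0.20, adjusted p = 0.435) in males by the same edgeR test and Benjamini-Hochberg adjustment, without passing in either. In females Casp1 was called in 5 of 24 alternatives, among them the likelihood ratio test (adjusted p = 0.0145) and DESeq2 (0.0302, both Benjamini-Hochberg), over a range of 0.0145 to 0.781. The averaged call was lost without WT female 1 (adjusted p = 0.116 by edgeR, Benjamini-Hochberg, over a range of 0.000115 to 0.130).

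Il18 (ENSMUSG00000039217, chr9:50554827-50581840), a cytokine kept as a precursor until caspase-1 cleaves it, was at 13.6 and 15.2 CPM in WT females and at 16.3, 14.6, 14.7 and 16.2 CPM in APP/PS1 females. Its values in males were 16.2 and 13.1 CPM in WT and 14.7, 15.7, 16.5 and 13.3 CPM in APP/PS1. The groups overlapped in each sex. The averaged log2 fold change was 0.04 (95% interval -0.11 to 0.20, adjusted p = 0.904, edgeR's quasi-likelihood test, Benjamini-Hochberg). Its span overlaps the antisense genes Bco2 and Tex12.

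Il1b (ENSMUSG00000027398, chr2:129364570-129371139), a cytokine that NF-kappaB induces and caspase-1 matures, had 6 and 12 counts in WT females, 18, 23, 37 and 6 in APP/PS1 females, 7 and 34 in WT males and 14, 24, 21 and 17 in APP/PS1 males. The highest WT value, 0.672 CPM, was in WT male 2, the library with the most neutrophil marker counts, and the other WT libraries were at 0.159, 0.260 and 0.184 CPM. APP/PS1 libraries ran from 0.167 to 0.849 CPM, so the genotypes overlapped with or without WT male 2. The part of neutrophil transcripts in this value was not tested. Fitted without the filter, the log2 fold change was 1.57 (SE 0.53) in females and -0.06 (SE 0.47) in males, with adjusted p of 0.354 and 1 by edgeR's quasi-likelihood test, Benjamini-Hochberg. Its span overlaps the antisense gene Il1bos.

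Set per kilobase of annotated exons, the order of levels over all 12 libraries was Il18 at 14.6 CPM per kilobase, Casp1 at 2.52, Pycard at 0.841, Naip2 at 0.545, Nlrp3 at 0.409, Naip5 at 0.287, Il1b at 0.227, Naip6 at 0.130, Nlrc4 at 0.0512 and Naip1 at 0.0237 CPM per kilobase. The ranges over libraries of Il18, Casp1 and Pycard did not overlap each other, while from Pycard down each gene overlapped with the next. The order differed within WT groups, where Nlrp3 (0.288) exceeded Naip2 (0.214 CPM per kilobase) in females and Il1b (0.224) exceeded Naip5 (0.202 CPM per kilobase) in males. The length of Pycard includes retained introns, which lowers its value. Its place below Casp1, and the gap between their ranges, rest on that length, and a shorter one could turn their order.

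Homeostatic microglia markers were also higher in APP/PS1. The summed level of the 16 markers was 520 and 460 CPM in WT females and 956, 757, 1127 and 803 CPM in APP/PS1 females. In males it was 504 and 609 CPM in WT and 1045, 977, 695 and 781 CPM in APP/PS1. All 8 APP/PS1 libraries lay above all 4 WT libraries, and of the 16 markers 10 rose with both sexes averaged, where 1.75% of all genes tested did. Within females and within males 0 passed edgeR's quasi-likelihood test, with 15 and 10 at an unadjusted p under 0.05, 9 and 4 by the likelihood ratio test, and 10 and 4 by DESeq2. All 16 were above 0 on the log2 scale in each sex, with medians of 0.86 in females and 0.63 in males, against 0.018 and 0.0039 over all genes tested.

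Over the 8 APP/PS1 libraries alone, Pearson's r with the marker sum on the log2 scale was 0.82 for the Naip sum, 0.90 for Naip2, 0.63 for Naip5, 0.35 for Naip6, 0.50 for Nlrp3, 0.78 for Pycard, -0.30 for Casp1 and -0.11 for Il18. Spearman's rho was 0.71, 0.83, 0.50, 0.36, 0.38, 0.76, -0.26 and -0.14 in the same order. This is a description over few libraries of both sexes, in which Casp1 and Il18 did not follow the markers.

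Per 1000 microglia marker counts, the Naip sum was 3.87 and 4.85 in WT females and 8.14, 8.68, 7.57 and 6.43 in APP/PS1 females. In males it was 6.30 and 5.64 in WT and 6.18, 7.65, 6.38 and 5.87 in APP/PS1. The female groups were apart and the male groups overlapped. For Casp1 the group means per 1000 marker counts were 5.36 in WT and 5.28 in APP/PS1 females and 4.65 and 4.83 in males. Nlrp3 had 2.39 and 2.59 in females and 1.64 and 1.86 in males, and Pycard had 3.55 and 4.26 in females and 4.22 and 4.16 in males. These 3 genes, which rose in CPM with both sexes averaged, overlapped between genotypes in each sex on this scale. Naip2 had 2.11 and 3.999 in females and 2.73 and 3.40 in males, Naip5 1.27 and 2.29 in females and 1.88 and 1.77 in males, and Naip6 0.651 and 1.31 in females and 1.12 and 1.17 in males. On this scale Naip2 was apart in females, while Naip5 and Naip6 overlapped there, since APP/PS1 female 4 lay below WT female 2 for both, and all 3 overlapped in males. Over both sexes the log2 ratio of the summed Naip counts to the marker counts was 0.47 higher in APP/PS1 than in WT. This compared 8 APP/PS1 with 4 WT libraries (two-sided exact permutation test, p = 0.00808, smallest possible p 0.00202). The permutation exchanged genotype labels without regard to sex, so it does not separate the female from the male values. Without the choroid plexus-rich libraries the difference in this log2 ratio was 0.40 and did not pass at p under 0.05 (exact permutation p = 0.0714). For the sum of all 10 members, the APP/PS1 minus WT difference in log2 ratio was -0.30 (two-sided exact permutation test, p = 0.0384). Il18 gave the most counts to this sum in every library, and its CPM overlapped between genotypes. Per 1000 marker counts the group means of Il18 were 29.6 in WT and 17.4 in APP/PS1 females and 26.8 and 17.7 in males. The -0.30 is thus largely a value of Il18 beside a marker sum that was higher in APP/PS1, and does not speak for the other members. That value did not pass either without the choroid plexus-rich libraries, at -0.22 (exact permutation p = 0.202). Without WT female 2, WT male 1, APP/PS1 female 3 or APP/PS1 males 1, 2 or 4 it was also lost, at -0.23 to -0.28 with exact permutation p of 0.0545 to 0.103. The part of microglial abundance in the changes of the members was not tested beyond these ratios.

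**Figure D4:**
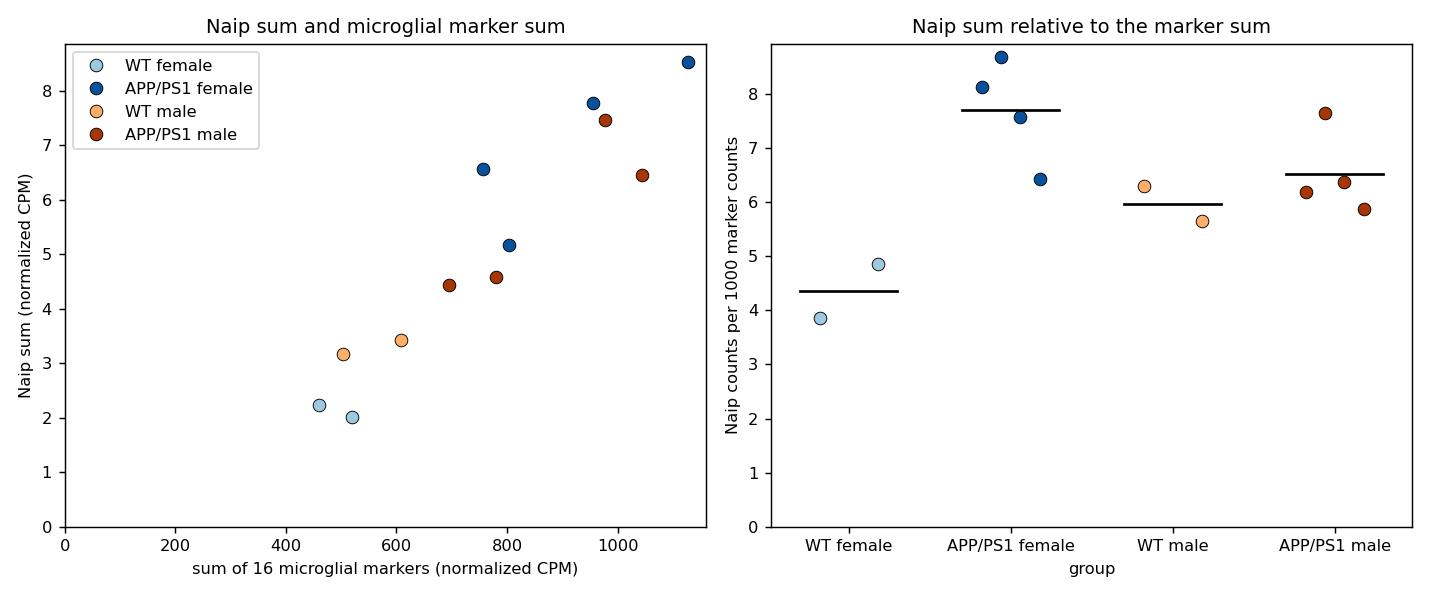
Left, the Naip sum against the sum of 16 homeostatic microglia markers (both in normalized CPM) in each library. Right, Naip counts per 1000 marker counts in each library (points) with group means (lines), where the WT females at 3.87 and 4.85 lie below all APP/PS1 females and the male groups overlap.

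Over the 8 APP/PS1 libraries, the tested genes outside the members most like the Naip sum, by Pearson's r of log2 CPM, were P4ha3 (r = 0.982, Spearman's rho = 0.976), Acot6 (0.972 and 0.976), Ctsd (0.964 and 0.952), Tmem176a (0.962 and 1) and Anxa2 (0.962 and 0.905). Ctsd, a lysosomal protease, was at 180.4 to 328 CPM in APP/PS1 and 108.2 to 150.3 CPM in WT, without overlap, while P4ha3, Acot6, Tmem176a and Anxa2 overlapped between genotypes. These are the highest of all genes tested over few libraries that share their genotype, and are a description.

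The genes beside the Naip cluster did not pass the test. Their averaged log2 fold changes were -0.05 for Smn1, 0.16 for Serf1 and 0.04 for Bdp1 on one side, and 0.07 for Gtf2h2, -0.06 for Ocln and 0.11 for Marveld2 on the other. The adjusted p was at least 0.664 for each of the 6 by edgeR's quasi-likelihood test, Benjamini-Hochberg.

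Of 57 other genes of the pathway, 41 could be tested, and with both sexes averaged 1 rose and 0 fell, where 1.75% of all genes tested rose, so this count is near that of the table as a whole. Their median log2 fold change was 0.06, against 0.011 over all genes, and 30 of the 41 were above 0. The 1 was Aim2, the sensor of cytosolic DNA, at 1.90 to 3.02 CPM in WT and 3.54 to 4.89 CPM in APP/PS1, so that all 8 APP/PS1 libraries lay above all 4 WT libraries. It rose by 0.65 (SE 0.14, adjusted p = 0.0396, edgeR's quasi-likelihood test, Benjamini-Hochberg), with 0.50 in females and 0.80 in males. Among 13 caspases, gasdermins and upstream regulators 0 passed with both sexes averaged, with 3 at an unadjusted p under 0.05 and 0 by the likelihood ratio test or DESeq2, the smallest p being that of Casp8, an initiator caspase (0.59, adjusted p = 0.251 by edgeR's quasi-likelihood test, Benjamini-Hochberg). Of 17 genes of the IL-1 family 12 could be tested and 0 passed, with 1 at an unadjusted p under 0.05 and 1 by the likelihood ratio test and by DESeq2. The smallest p was that of Il1a, an alarmin cytokine, at 1.02 (adjusted p = 0.117 by edgeR, Benjamini-Hochberg). The others were too low to test. Of these, Il1rl1 (0.185 to 0.325 CPM in WT, 0.341 to 1.08 in APP/PS1) and Il1rn (0 to 0.0395 and 0.0506 to 0.211) did not overlap between genotypes. Among all genes tested 1.37% were higher in APP/PS1 without overlap. Il1r2, Il18r1 and Il18rap overlapped. Rel, an NF-kappaB subunit, had the smallest p of the 8 priming genes, at 0.27 (adjusted p = 0.526 by edgeR, Benjamini-Hochberg), and Birc3, a regulator of cell death, had that of the 4 tested IAP genes, at 0.45 (adjusted p = 0.455 by edgeR, Benjamini-Hochberg). Of the 41, edgeR's quasi-likelihood test called 0 in females and 0 in males, with 9 and 2 at an unadjusted p under 0.05 (over all 15521 genes 1492 and 852), 2 and 1 by the likelihood ratio test, and 0 and 1 by DESeq2.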

How the data were processed

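The authors deposited unnormalized HTSeq counts per Ensembl gene, made from Trimmomatic-trimmed reads that STAR placed on GRCm38. Versions, strand and multi-mapping options were not given in the sources used here. Symbols and positions come from GENCODE M21, and promoter sequences from RefSeq (GRCm38.p6). All 12 libraries entered 1 model in edgeR 4.0.16 (R 4.3.3) with genotype by sex, upper-quartile scaling and 2 RUVg factors. Control genes for RUVg were those ranked after the first 5000 in an initial test over the groups. Genes with at least 1 CPM in at least 3 libraries were tested with the quasi-likelihood test, two-sided, with Benjamini-Hochberg adjustment over all genes tested and an FDR under 0.1. For the Naip sum, the 4 paralogs were replaced by their sum before the fit. Ratios to microglia markers used exact permutation tests over both sexes together, with an unadjusted p under 0.05 taken as passing.

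Alternatives were the likelihood ratio test, DESeq2 1.42.0, TMM scaling, a log2 CPM filter, no filter, and 0 or 1 RUV factor. Further ones were replicate number as a block, separate fits per sex without RUV factors, and an FDR of 0.05. The last were the choroid plexus-rich libraries left out (Ttr above 1000 CPM), all Naip-named genes summed, and each library left out in turn. Leaving out WT male 2 with the choroid plexus-rich libraries, without RUV factors, was chosen after seeing the data. Named were all members, other Naip-named genes, genes of the pathway lists that passed (or the smallest averaged p of a list), the most abundant gene of each marker list, the neighbours of the Naip cluster, the transgene-related genes and the 5 genes most like the Naip sum. A few genes under this rule are not reported here. The members, gene lists and tests were chosen with earlier results of these data known. Genes outside that rule (Gfap, Spink8, Kl, single neutrophil genes and the untested IL-1 family genes) were named after their values had been looked at. The code was checked on simulated counts. Libraries of 1 group differed by more than sampling noise in every one of 14 pairs.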

Additional observations from a re-analysis of the deposited data

Results flagged for a closer look

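Of 36 sets of 4 libraries checked, 3 had 1 library far from the others, and chance sets apart about 1 in 20. In APP/PS1 males, the summed neutrophil markers of APP/PS1 male 1 (1.55 CPM) stood apart, with a gap to the nearest library of 0.871 of the group's range. The summed choroid plexus markers stood apart in APP/PS1 female 1 (3872 CPM, gap over range 0.998) and in APP/PS1 male 2 (6904 CPM, 0.997). The Naip sum in those libraries was 6.45, 7.78 and 7.47 CPM. The groups of 2 WT libraries could not be checked this way. Fits were made without the choroid plexus-rich libraries and without each single library, APP/PS1 male 1 and WT male 2 included. Beyond those fits the part of these markers in the results was not tested.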

How the results depend on the processing

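The setting chosen after seeing the data left out 4 libraries, the choroid plexus-rich ones and WT male 2, without RUV factors. The number of members that passed in females (3) was 6 with edgeR's likelihood ratio test, 5 with DESeq2 and 5 with no filter. It was 1 with no RUV factors and 1 with females fitted alone, also without RUV factors. Leaving out single libraries gave 0 to 5, with 0 without WT female 1 or WT female 2 and 5 without APP/PS1 male 1. With both sexes averaged (6) it was 0 in the setting that leaves out 4 libraries and 2 to 6 with single libraries left out, with 2 without WT female 1 and 3 without WT female 2. In that 4-library setting, with 8 libraries and 1 WT library in each sex left, the Naip sum kept its direction at 1.75 in females and 1.22 averaged without passing (adjusted p = 0.151 and 0.113, edgeR's quasi-likelihood test, Benjamini-Hochberg). Without RUV factors Naip5 and Naip6 did not pass in females (adjusted p = 0.147 and 0.115, edgeR, Benjamini-Hochberg), nor did Naip5 averaged (0.107). The log2 fold changes there were 1.75 for Naip5 and 1.88 for Naip6 in females, and 1.16 for Naip5 averaged. With the log2 CPM filter Naip6 could not be tested. In males and in the interaction 0 members passed in any alternative run, DESeq2 and the likelihood ratio test included, with 3 members in each at an unadjusted p under 0.05. The causes were not tested.

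Il18, which did not pass, changed sign in males with the replicate number as a block (-0.025), with those 4 libraries left out (-0.13) and over single libraries left out (-0.12 to 0.16), and averaged over single libraries left out (-0.013 to 0.12). The APP/PS1 minus WT difference in the log2 ratio of Naip to microglia marker counts was 0.40 without the choroid plexus-rich libraries. It was 0.34 to 0.57 without single libraries. For the 10-member sum this difference in log2 ratio was -0.22 and -0.35 to -0.23 in the same order. Genes called in females (124) were 320 with the likelihood ratio test and 311 with DESeq2, 197 with no filter, 78 at an FDR of 0.05 and 23 to 191 with single libraries left out.

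With the replicate number as a block, 4 members passed in females, 6 averaged and 0 in males, and the Naip sum was 1.87, 1.34 and 0.81. The numbers mark no shared litter or day in the labels, and same-numbered libraries deviated together (correlation above 0.1) in 4 of 14 pairs, from -0.61 to 0.67. With 2 WT libraries per sex their deviations mirror each other, so the pairs are not independent. The highest pair was WT female 2 with APP/PS1 male 2, both choroid plexus-rich. The lowest was WT female 1 with the choroid plexus-rich APP/PS1 female 1. The count therefore cannot tell whether the numbers mark pairs. Counts of at most 37 per library limit Naip1, Nlrc4 and Il1b.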
